A study of Mus musculus with 4 samples.

Results

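The 43 genes described here are 29 S-phase genes, which carry out or switch on DNA replication, and 14 mitotic genes, which drive and monitor chromosome segregation. They were taken by name from the gene table of the RNA sequencing experiment, and all 43 were found among its 23537 genes. The table compared *Mbd4*-/- (KO) mouse embryonic fibroblasts (MEFs) with *Mbd4*+/+ (WT) MEFs, with 2 libraries for each genotype. Both genotypes were of the C57BL/6 strain and came from embryos at day 12.5 post coitum. *Mbd4* encodes a methyl-CpG binding DNA glycosylase that removes thymine or uracil from G/T and G/U mismatches. The cells were primary, subconfluent cultures, and RNA was sequenced with ribosomal RNA removed. According to the methods, the 2 RNA samples of a genotype were purified independently. Whether they came from separate embryos or cultures is not stated there, so the p-values below measure only the spread between these libraries, which may be technical.

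A dividing cell copies its DNA once per cycle. The MCM helicase is loaded onto origins in G1 by Cdc6 and Cdt1, is activated at the start of S phase by Cdc45 and the GINS complex, and is followed by the polymerases and the sliding clamp. Genes of this program are switched on by E2F transcription factors through E2F motifs in their promoters. Genes needed for mitosis peak later, in G2 and mitosis, and many are controlled by the DREAM, MYBL2-MuvB and FOXM1 complexes through a cell cycle homology region (CHR), often near CCAAT boxes bound by NF-Y. Fibroblasts in culture express both programs in proportion to the cells that pass through each phase, so bulk RNA cannot tell fewer cells in a phase from less RNA in each cell.

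To show what sets the programs apart in sequence, the 250 bases before the annotated start are given for an MCM subunit that rose, an MCM subunit that fell, and mitotic genes that fell. Sequences run 5' to 3' and are from RefSeq, build GRCm38.p6, which is not the mm9 build used for the counts. The bases just after the start were found in the longest mm9 transcript of *Cdc20* and *Cdk1*, but not in that of *Mcm6* or *Mcm5*. The stretches of *Mcm6* and *Mcm5* may therefore not lie directly before the start annotated in mm9. Capitals mark an E2F motif (TTTCCCGC, TTTGGCGC, TTTCGCGC or TTTGCCGC), the CHR (TTTGAA) or a CCAAT box (CCAAT), each searched on both strands.
Mcm6 (chr1:128359706-128359955, minus strand): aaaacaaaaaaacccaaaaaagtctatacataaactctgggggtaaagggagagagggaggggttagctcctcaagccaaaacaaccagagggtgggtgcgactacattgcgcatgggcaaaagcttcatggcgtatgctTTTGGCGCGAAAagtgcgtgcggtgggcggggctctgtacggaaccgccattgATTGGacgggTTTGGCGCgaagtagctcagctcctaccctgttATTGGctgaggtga
Mcm5 (chr8:75109259-75109508, plus strand): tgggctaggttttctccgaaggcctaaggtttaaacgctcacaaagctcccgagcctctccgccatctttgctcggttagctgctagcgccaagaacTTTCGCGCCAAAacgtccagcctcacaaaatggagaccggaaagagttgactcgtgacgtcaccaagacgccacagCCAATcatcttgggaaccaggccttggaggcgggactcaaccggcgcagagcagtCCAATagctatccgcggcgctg
Cdc20 (chr4:118437344-118437593, minus strand): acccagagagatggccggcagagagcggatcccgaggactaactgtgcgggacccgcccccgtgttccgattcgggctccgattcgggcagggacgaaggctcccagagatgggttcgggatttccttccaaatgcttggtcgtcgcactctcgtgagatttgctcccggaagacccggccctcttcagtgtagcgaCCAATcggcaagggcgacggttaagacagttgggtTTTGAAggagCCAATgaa
Cdk1 (chr10:69352913-69353162, minus strand): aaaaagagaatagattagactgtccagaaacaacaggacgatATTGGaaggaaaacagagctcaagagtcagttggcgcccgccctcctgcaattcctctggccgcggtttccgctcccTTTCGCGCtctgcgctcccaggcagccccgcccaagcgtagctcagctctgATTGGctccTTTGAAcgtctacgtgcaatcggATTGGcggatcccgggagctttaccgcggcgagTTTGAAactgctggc
The upstream part shown held 3 E2F motifs for *Mcm6* and 2 for *Mcm5*. In each case, 2 matches on opposite strands overlap in a single run of capitals. Both parts also held 2 CCAAT boxes, and neither held a CHR. The part shown for *Cdc20* held 1 CHR and 2 CCAAT boxes but no E2F motif. That of *Cdk1* held 1 E2F motif, 2 CHRs and 3 CCAAT boxes.

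A window of 300 bases, 250 before and 50 after the start, was found for 35 of the 43 genes, 23 S-phase and 12 mitotic. Some genes, such as *Mcm7*, had more than 1 window and were counted if any of them held the motif. An E2F motif was held by 13 of 23 S-phase genes (56.5%) and by 1 of 12 mitotic genes (8.33%). The share was 2.6% of the 27025 genes with a window and 4.56% of the 9861 of them that were tested for expression. The CHR was held by 6 of 23 S-phase genes (26.1%) and by 9 of 12 mitotic genes (75%), beside 20.2% of all genes with a window and 14.3% of those tested. A CCAAT box was held by 73.9% of these S-phase and 91.7% of these mitotic genes, beside 41.1% of all genes with a window and 43% of those tested. Within the S-phase genes, 7 of 10 that were higher in KO and 5 of 9 that were lower in KO held an E2F motif. The CHR was held by 1 of 10 that were higher and 3 of 9 that were lower, and neither difference was tested. A match is a run of letters and was not tested as a binding site.

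**Figure D1:**
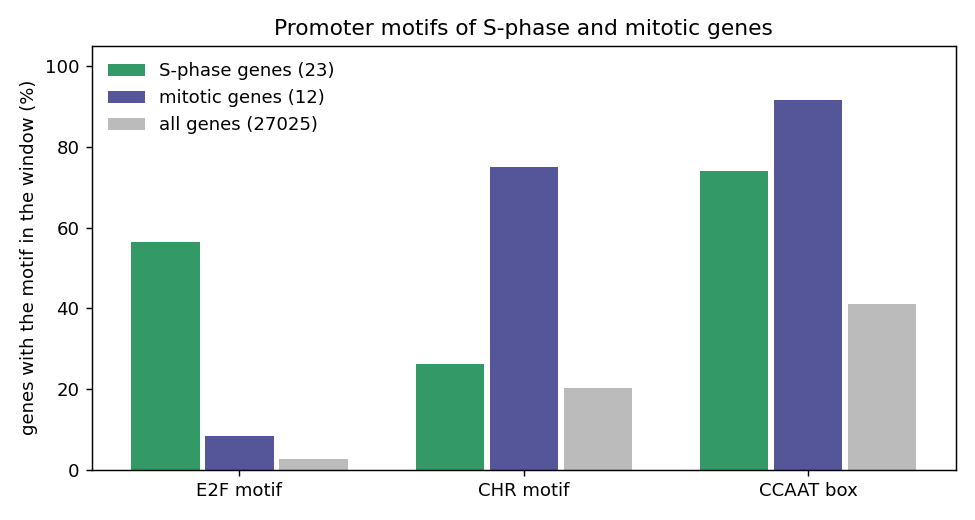
Share of genes, in percent, with each motif in a 300-base promoter window, for the S-phase genes (green, 23 genes), the mitotic genes (violet, 12 genes) and all genes with a window (grey, 27025). The E2F bar is tallest for S-phase genes at 56.5%, and the CHR bar for mitotic genes at 75%.

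The libraries held 45223089 and 39108275 counts in KO and 47567835 and 42796997 counts in WT. *Mbd4* itself had 373 and 302 counts in KO, against 663 and 630 counts in WT, so reads from the locus remained in both KO libraries at a lower level. Of the 13 fibroblast and mesenchyme markers, 9 (69.2%) were lower in KO and 0 higher by edgeR's test, described below. Of all genes tested, 32.5% were lower and 34.3% higher. The summed level of these markers was 13100 and 14300 CPM (counts per 1000000 scaled counts) in KO, against 24600 and 22100 CPM in WT. *Dcn*, a fibroblast proteoglycan, was at 0.105 and 0.17 CPM in KO, against 30.1 and 27.4 CPM in WT. The haematopoietic markers *Hba-a1* and *Hbb-b1* and the skeletal muscle markers *Myod1*, *Myog* and *Myf5* were not found by name in the gene table. Without these, the epithelial, endothelial, haematopoietic and skeletal muscle lists each summed to 8.78 CPM or less in every library. Some of their members differed by genotype at these low levels: *Cdh1*, the epithelial cadherin, had 2.99 and 2.6 CPM in KO, against 0.223 and 0.22 CPM in WT (log2 fold change 3.64). *Csf1r*, a macrophage receptor, was also higher in KO (1.74), and *Acta1*, skeletal muscle actin, was lower (-1.76). *Ptprc*, the leukocyte antigen CD45, was lower too, at 0 and 0.0485 CPM in KO, against 0.893 and 0.513 CPM in WT. The neural list, in which *Map2* was not found by name, summed to 141 and 136 CPM in KO, against 459 and 376 CPM in WT. Most of this sum was *Nes*, which cultured fibroblasts can also express. *Tubb3*, a neuronal tubulin, was also lower, at 3.81 and 5.68 CPM in KO, against 32.3 and 34.2 CPM in WT (-2.82). *Gfap* was lower too (-1.23). The genotypes thus differed in far more than cell cycle genes, and the part of these differences in the results below was not tested.

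All 43 genes passed the filter on low counts, with 81 to 49909 counts in a library. Fold changes are log2 KO over WT from edgeR's quasi-likelihood test, with standard error (SE) and with p-values adjusted by Benjamini-Hochberg over 15538 genes. A gene was called higher or lower at an adjusted p under 0.05. Of all genes tested, 34.3% were called higher and 32.5% lower in KO, and the median log2 fold change was 0.024. Of the 43 genes, 14 were higher, 20 lower and 9 not called. The KO libraries lay wholly above or below the WT libraries for 38 of the 43 genes (88.4%), beside 82.8% of all genes tested. An absolute log2 fold change of 1 with an adjusted p under 0.05 was reached by 2 of the 43 genes, *E2f7* and *Plk1*, beside 21.9% of all genes tested, so these changes were mostly under 2-fold. With 2 libraries against 2, a permutation of the libraries cannot give an exact two-sided p below 0.333, and the calls therefore rest on the spread that edgeR estimates across genes.

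Of the 29 S-phase genes, 13 (44.8%) were higher in KO and 9 (31%) lower, beside 34.3% and 32.5% of all genes tested, with a median log2 fold change of -0.016, beside 0.024 for all genes tested. Calls in both directions at such shares are near the background and are not read as a result about the S-phase genes. Of the 14 mitotic genes, 1 was higher and 11 (78.6%) were lower, beside the same 34.3% and 32.5%, with a median of -0.47. Within each library, the summed CPM of the S-phase genes over that of the mitotic genes was 1.28 and 1.34 in KO, against 0.949 and 0.883 in WT, with no correction for gene length. This ratio does not depend on how libraries are scaled to each other, but abundant genes weigh most in it. In KO replicate 1, *Top2a* alone made up 1050 of the 2642 CPM of the mitotic sum. The side of 1 on which the ratio falls also depends on the number and length of the genes. With equal weight for each gene, the mean log2 CPM of S-phase minus mitotic genes was -0.85 and -0.77 in KO, against -1.29 and -1.35 in WT.

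**Figure D2:**
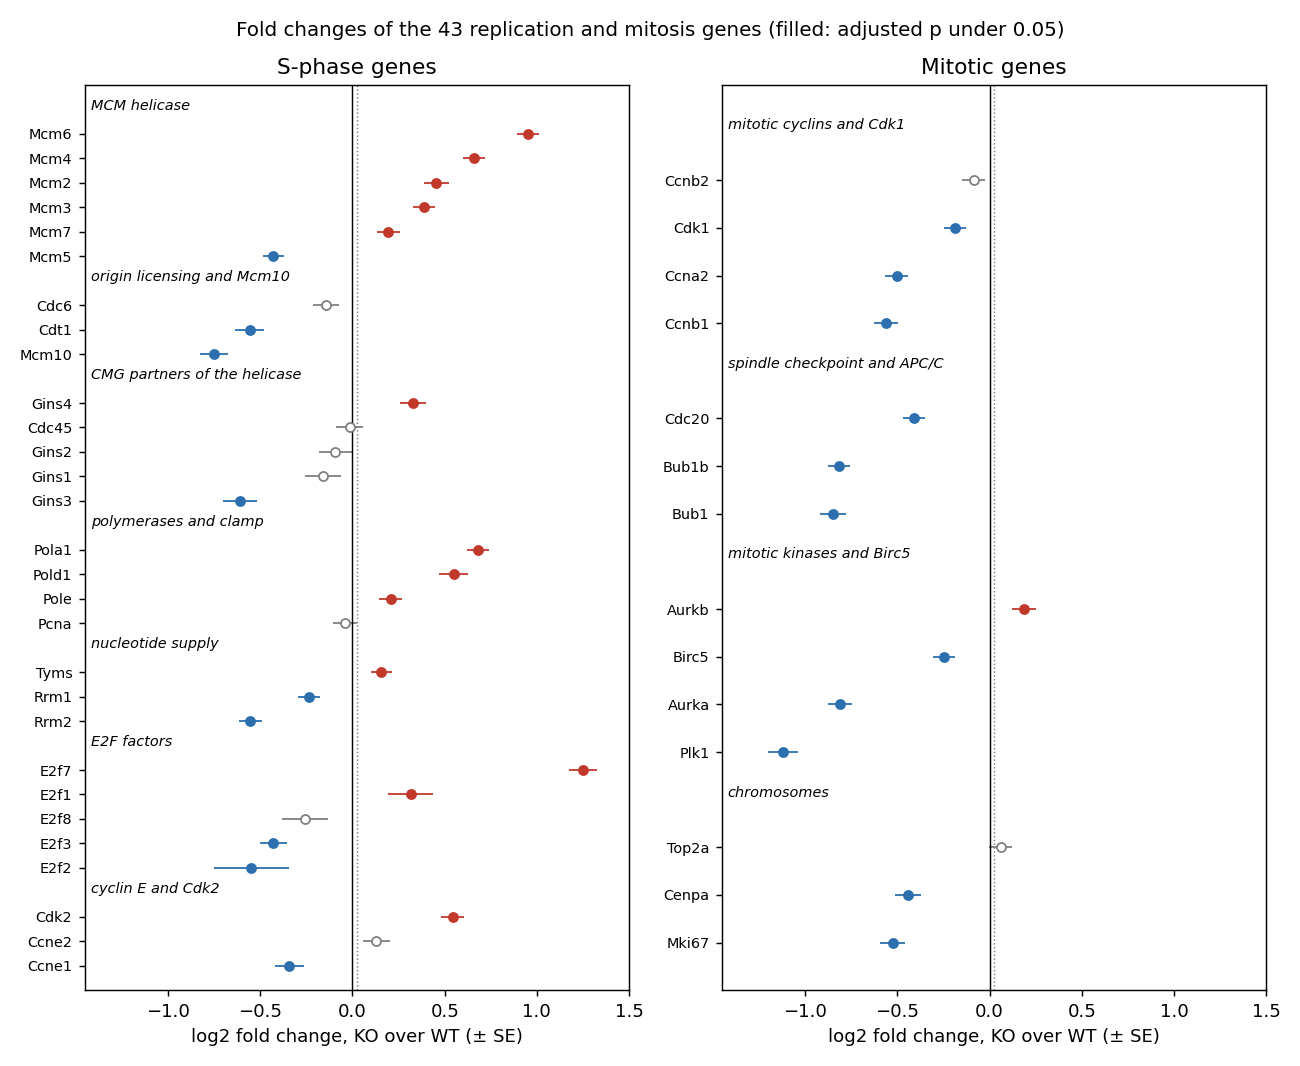
Log2 fold change, KO over WT, with SE, of the 29 S-phase genes (left) and 14 mitotic genes (right), grouped by role. Filled points passed an adjusted p under 0.05 (red higher, blue lower in KO), open points did not, and the dotted line is the median of all genes. S-phase genes lie on both sides of 0, whereas 12 of 14 mitotic genes lie below it.

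The MCM2-7 subunits form a hexamer with 1 copy of each. Of their 6 genes, 5 (83.3%) were higher in KO, beside 34.3% of all genes tested. So small a group was not tested as a set. *Mcm6* (mm9 chr1:130228168-130256233, minus strand, 16 exon blocks) had 494 and 490 CPM in KO, against 261 and 248 CPM in WT. Both KO libraries were nearly double the WT libraries (log2 fold change 0.95, SE 0.06, adjusted p = 9.4e-09 by edgeR's quasi-likelihood test). *Mcm4* (0.66), *Mcm2* (0.45), *Mcm3* (0.39) and *Mcm7* (0.19) followed in that order. *Mcm5* (mm9 chr8:77633427-77652338, plus strand) went the other way, with 131 and 132 CPM in KO, against 181 and 174 CPM in WT. Its KO libraries both lay below the WT libraries (-0.43, SE 0.06, adjusted p = 1.8e-05 by edgeR). Levels per kilobase used the union of all annotated exons as the length. On this scale, the highest subunit in WT, *Mcm4*, was 1.35 and 1.38 times the lowest, *Mcm7*. The *Mcm7* union of 4426 bases includes 172 bases shared with microRNA genes and 385 shared with *Ap4m1* or *Cops6*. If this union is longer than the transcripts expressed, the *Mcm7* level per kb is too low. The closeness of the subunits in WT therefore depends on this length. In KO, the highest was *Mcm6* at 113 and 112 CPM per kb and the lowest *Mcm5* at 37.4 and 37.8 CPM per kb, a ratio of 3.03 and 2.97. The ratio of *Mcm6* to *Mcm5*, taken within a library from CPM without the length, was 3.78 and 3.7 in KO, against 1.44 and 1.43 in WT. The smaller change of *Mcm7* lost its call without KO replicate 1, KO replicate 2 or WT replicate 2 (adjusted p = 0.08, 0.054 and 0.18 by edgeR). *Mcm7* overlaps 3 microRNA genes, *Ap4m1* and *Cops6*, and has a near copy elsewhere in mm9 (97.5% identity), so its count is less certain than those of the other subunits.

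**Figure D3:**
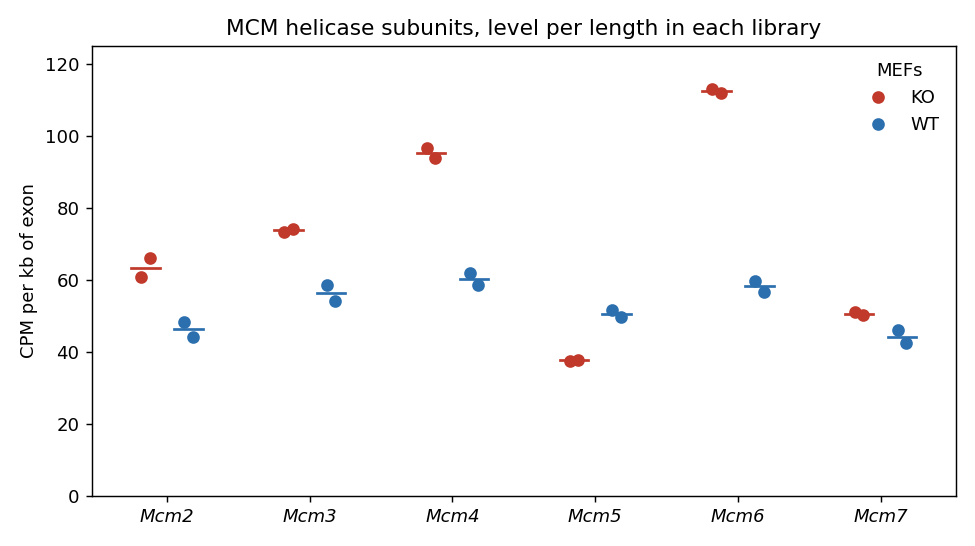
Level of the MCM2-7 genes in CPM per kb of exon, with a point for each library and a bar for the mean of 2 libraries, KO (red) left of WT (blue). At these lengths, WT libraries hold the 6 subunits between 42.4 and 61.9, and KO libraries spread them from 37.4 for *Mcm5* to 113 for *Mcm6*. Lengths are unions of all annotated exons, which may be too long for *Mcm7*, the lowest in WT.

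Of the factors that load and start the helicase, *Mcm10*, *Cdt1* and *Gins3* were lower in KO and *Gins4* was higher. *Mcm10*, which helps to activate the loaded helicase, had 35.1 and 35.9 CPM in KO, against 62.6 and 56.8 CPM in WT. It was the S-phase gene with the largest fall (-0.75, SE 0.07, adjusted p = 9.8e-07 by edgeR), and its KO and WT libraries did not overlap. *Cdt1*, the loading factor, was also lower (-0.56, SE 0.08), with 21.4 and 22.5 CPM in KO, against 32.8 and 31.6 CPM in WT. *Cdc6*, its partner, was not called (-0.15, SE 0.07, adjusted p = 0.083 by edgeR), although both KO libraries lay below both WT libraries. Without WT replicate 2 it was called lower (-0.21, adjusted p = 0.024 by edgeR), and it has a near copy elsewhere in mm9. Of the GINS and Cdc45 partners that complete the active helicase, *Gins4* was higher (0.33, SE 0.07) and *Gins3* lower (-0.61, SE 0.09). *Gins3* had 13.4 and 13 CPM in KO, against 19.5 and 20.8 CPM in WT, whereas *Gins4* had 60 and 57.5 CPM in KO, against 47.7 and 45.9 CPM in WT. The GINS genes thus moved apart although their proteins act as a single complex. *Cdc45* (-0.016), *Gins1* (-0.16) and *Gins2* (-0.092) were not called, though *Gins2* was called lower without WT replicate 2 (adjusted p = 0.034 by edgeR). Most of the *Gins2* exon sequence, 2758 of 4097 bases, overlaps *Gse1* or *Gm20388* on the other strand, and 209 exon bases of *Cdc45* overlap *Ufd1l*.

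The catalytic subunits of all 3 replicative polymerases were called higher in KO, beside 34.3% of all genes tested, and were not tested as a set. *Pola1*, the catalytic subunit of the polymerase alpha that starts each strand with primase, had 207 and 194 CPM in KO, against 123 and 127 CPM in WT (0.68, SE 0.06, adjusted p = 3.2e-07 by edgeR). Both KO libraries were well above both WT libraries. *Pold1* (0.55, SE 0.08), the catalytic subunit of the lagging strand polymerase, and *Pole* (0.21, SE 0.06), that of the leading strand polymerase, were also higher. The *Pole* call was lost without KO replicate 1 or WT replicate 2 (adjusted p = 0.084 and 0.16 by edgeR). *Pcna*, the sliding clamp that holds the polymerases on DNA, was not called, at 194 and 196 CPM in KO, against 211 and 190 CPM in WT. Its libraries overlapped (-0.040, SE 0.06), it was called lower only without WT replicate 2 (adjusted p = 0.046 by edgeR), and it has a near copy elsewhere in mm9 with 99.3% identity. The ratio of *Mcm6* to *Pcna* was 2.55 and 2.5 in KO, against 1.24 and 1.31 in WT.

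The nucleotide supply genes were mixed. *Rrm2*, the regulated small subunit of ribonucleotide reductase, was lower (-0.55, SE 0.06, adjusted p = 3e-06 by edgeR), with 111 and 106 CPM in KO, against 165 and 154 CPM in WT. It has a near copy over 420 bases elsewhere in mm9. *Rrm1*, the large subunit, fell by 0.24 (SE 0.06), a call that was lost when libraries were scaled by their totals alone (adjusted p = 0.19 by edgeR). *Tyms*, which makes thymidylate, was slightly higher (0.16, SE 0.06, adjusted p = 0.03 by edgeR), and this call held in only 5 of 12 alternatives, among them none that left out a library.

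The E2F genes gave the largest rise of the set. *E2f7*, an atypical E2F that represses E2F targets late in the cycle (mm9 chr10:110182495-110224440, plus strand), had 62.9 and 66.8 CPM in KO, against 26.2 and 28.4 CPM in WT. It was more than 2-fold higher (1.25, SE 0.08, adjusted p = 7.5e-09 by edgeR), with no overlap between genotypes. *E2f8*, its closest relative, was at 7.49 and 8.08 CPM in KO, against 9.96 and 8.62 CPM in WT, and was not called (-0.26, SE 0.13) except without WT replicate 2 (adjusted p = 0.0043 by edgeR). Of the activating E2Fs, *E2f3* was lower (-0.43, SE 0.07, adjusted p = 0.00017 by edgeR), and *E2f2*, with the fewest counts of the 43 genes, was at 1.7 and 2.16 CPM in KO, against 2.99 and 2.64 CPM in WT (-0.55, SE 0.20). *E2f1* was at 15.4 and 18.1 CPM in KO, against 14.8 and 12 CPM in WT (0.32, SE 0.12). The calls of *E2f1* and *E2f2* were weak. That of *E2f1* was lost with DESeq2 (adjusted p = 0.12 by DESeq2) and without KO replicate 2 or WT replicate 2 (log2 fold changes 0.19 and 0.14). That of *E2f2* was lost with DESeq2 (adjusted p = 0.13 by DESeq2) and with library totals (adjusted p = 0.1 by edgeR). It was also lost without KO replicate 1 or WT replicate 1 (log2 fold changes -0.38 and -0.46). Cyclin E and its kinase also differed: *Cdk2* was higher (0.54, SE 0.06, adjusted p = 3.8e-06 by edgeR), *Ccne1* lower (-0.34, SE 0.08, adjusted p = 0.0014 by edgeR), and *Ccne2* not called (0.13, SE 0.07) except without WT replicate 1 (adjusted p = 0.025 by edgeR) and under other scalings. *Ccne2* shares 609 exon bases with *Ints8*. *Cdk2* had 88.8 and 91.5 CPM in KO, against 62.3 and 61.3 CPM in WT.

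Of the mitotic genes, *Plk1*, a kinase required for mitotic entry, spindle assembly and exit (mm9 chr7:129302951-129313389, plus strand), was the most reduced. It had 23.1 and 24.3 CPM in KO, against 54.1 and 48.9 CPM in WT (-1.12, SE 0.08, adjusted p = 3.5e-08 by edgeR). Both KO libraries were below 0.5 of the WT mean. The spindle checkpoint genes were the next lowest. *Bub1*, a checkpoint kinase at kinetochores, had 77.4 and 67.9 CPM in KO, against 135 and 127 CPM in WT (-0.85, SE 0.07, adjusted p = 1.8e-07 by edgeR). *Bub1b*, which encodes the checkpoint protein BubR1, had 100 and 96.5 CPM in KO, against 170 and 176 CPM in WT (-0.82, SE 0.06, adjusted p = 4.4e-08 by edgeR). The genotypes did not overlap for either gene. *Cdc20*, the activator of the anaphase-promoting complex that the checkpoint holds back, was lower by less (-0.41, SE 0.06).

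The Aurora kinases went in opposite directions. *Aurka*, which acts at centrosomes and spindle poles, had 54.9 and 53.6 CPM in KO, against 98.6 and 91.9 CPM in WT (-0.81, SE 0.07, adjusted p = 1.2e-07 by edgeR). *Aurkb*, the kinase of the chromosomal passenger complex, had 69.3 and 68.4 CPM in KO, against 61.8 and 59.1 CPM in WT (0.19, SE 0.06, adjusted p = 0.02 by edgeR). The ratio of *Aurkb* to *Aurka* was 1.26 and 1.28 in KO, against 0.627 and 0.643 in WT. *Aurkb* was the only mitotic gene called higher. The call was lost with DESeq2 (adjusted p = 0.1 by DESeq2) and with no filter on low counts (adjusted p = 0.079 by edgeR). It was also lost without KO replicate 1, KO replicate 2 or WT replicate 2 (log2 fold changes 0.18, 0.20 and 0.12). *Birc5*, the survivin subunit of the same complex, was lower (-0.25, SE 0.06), which did not hold when libraries were scaled by their totals alone (adjusted p = 0.16 by edgeR).

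Of the cyclins that partner Cdk1, *Ccnb1* (-0.56, SE 0.06) and *Ccna2* (-0.50, SE 0.06) were lower, and *Ccnb2* was not called (-0.086, SE 0.06). *Ccnb1* has 3 near copies elsewhere in mm9, with up to 99.1% identity, and 512 exon bases of *Ccna2* overlap *Exosc9*, so their counts are less certain. *Cdk1*, the kinase of mitotic entry, fell by 0.19 (SE 0.06, adjusted p = 0.011 by edgeR). This call was lost with library totals or upper-quartile scaling (adjusted p = 0.56 and 0.06 by edgeR) and without KO replicate 2 (log2 fold change -0.16). *Plk1* over *Cdk1* was 0.107 and 0.117 in KO, against 0.223 and 0.203 in WT. *Mki67*, the proliferation marker Ki-67 that coats mitotic chromosomes, had 382 and 383 CPM in KO, against 514 and 585 CPM in WT (-0.52, SE 0.07). *Cenpa*, the centromeric histone H3 variant, was also lower (-0.44, SE 0.07). *Top2a*, which encodes the topoisomerase that untangles sister chromosomes and has the most counts of the 43 genes, was not called, at 1050 and 968 CPM in KO, against 961 and 975 CPM in WT. Its libraries overlapped (0.060, SE 0.06), and it was called higher with library totals (adjusted p = 0.0091 by edgeR).

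**Figure D4:**
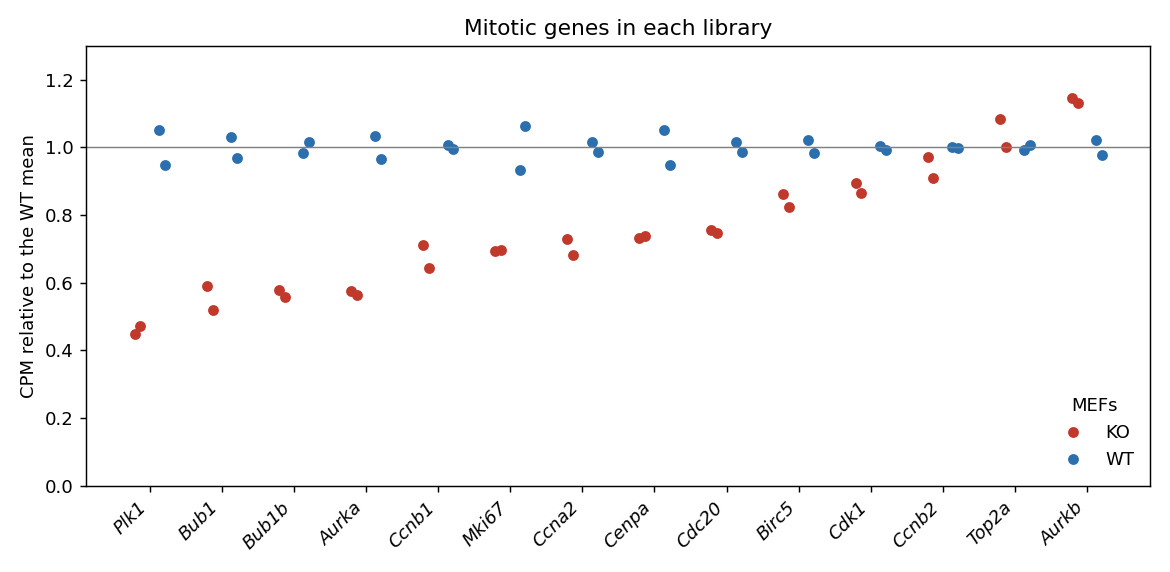
CPM of each of the 14 mitotic genes in each library, relative to the WT mean (grey line at 1), with 2 KO libraries (red) left of 2 WT libraries (blue) and genes in order of their fold change. KO libraries lie below both WT libraries for all genes but *Top2a* and *Aurkb*. Separation in either direction held for 92.9% of these genes, beside 82.8% of all genes tested.

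Of 48 other replication genes, 23 (47.9%) were higher in KO and 13 (27.1%) lower, beside 34.3% and 32.5% of all genes tested, with a median log2 fold change of 0.14. *Timeless*, a fork protection factor, was the highest (1.04, SE 0.06), with 130 and 126 CPM in KO, against 63.2 and 61.3 CPM in WT. *Pola2* (0.97) and *Prim1* (0.77), which with *Pola1* belong to the polymerase alpha-primase complex, and *Dna2* (0.80), a nuclease that processes Okazaki fragments, followed. The largest falls were *Orc6* (-0.90) and *Orc4* (-0.82), subunits of the origin recognition complex, *Dbf4* (-0.72), the activator of Cdc7 kinase, and *Top1* (-0.72), which relaxes DNA ahead of the fork. *Cdc7* itself was higher (0.63), so the kinase and its activator changed in opposite directions.

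Of 63 other mitosis genes in the table, 10 (15.9%) were higher and 34 (54%) lower, beside 34.3% and 32.5% of all genes tested, with a median of -0.23. The largest falls were *Ube2c* (-0.96), a ubiquitin-conjugating enzyme of the anaphase-promoting complex, *Cks1b* (-0.93), a Cdk-binding protein, *Kif22* (-0.88), a chromokinesin, and *Cenpn* (-0.82), a centromere protein. The largest rises were *Cenpk* (0.52) and *Cenpm* (0.35), centromere proteins, *Spc24* (0.48), a subunit of the Ndc80 kinetochore complex, and *Kif15* (0.34), a spindle kinesin. The *Cenpm* call was lost without KO replicate 2 (adjusted p = 0.083 by edgeR). The fall was therefore not shared by every mitosis gene.

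Of 27 regulators of both programs, 10 (37%) were higher and 11 (40.7%) lower, shares near the 34.3% and 32.5% of all genes tested, with a median of 0.074. *Mybl2*, the MuvB partner that activates mitotic genes, had 17.1 and 19.6 CPM in KO, against 47 and 40.1 CPM in WT (-1.25, SE 0.10, adjusted p = 7.9e-08 by edgeR). *E2f4*, the repressive E2F of the DREAM complex, was lower as well (-1.17, SE 0.09), with 13.7 and 13.4 CPM in KO, against 31.6 and 29.3 CPM in WT. *Skp2* (-0.67), a ubiquitin ligase subunit that targets Cdk inhibitors, and *E2f6* (-0.63), a repressive E2F, were the next lowest. *Pkmyt1* (0.53), a kinase that inhibits Cdk1, *Tfdp2* (0.52), a partner of E2Fs, *Rbl1* (0.48), the pocket protein p107, and *Lin37* (0.44), a MuvB subunit, were the highest. *Lin37* lost its call with DESeq2 (adjusted p = 0.1 by DESeq2) and without KO replicate 2 (log2 fold change 0.28). *Foxm1*, the other activator of mitotic genes, was not called (-0.072, SE 0.08), at 57.6 and 64.1 CPM in KO, against 66.8 and 61 CPM in WT.

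**Figure D5:**
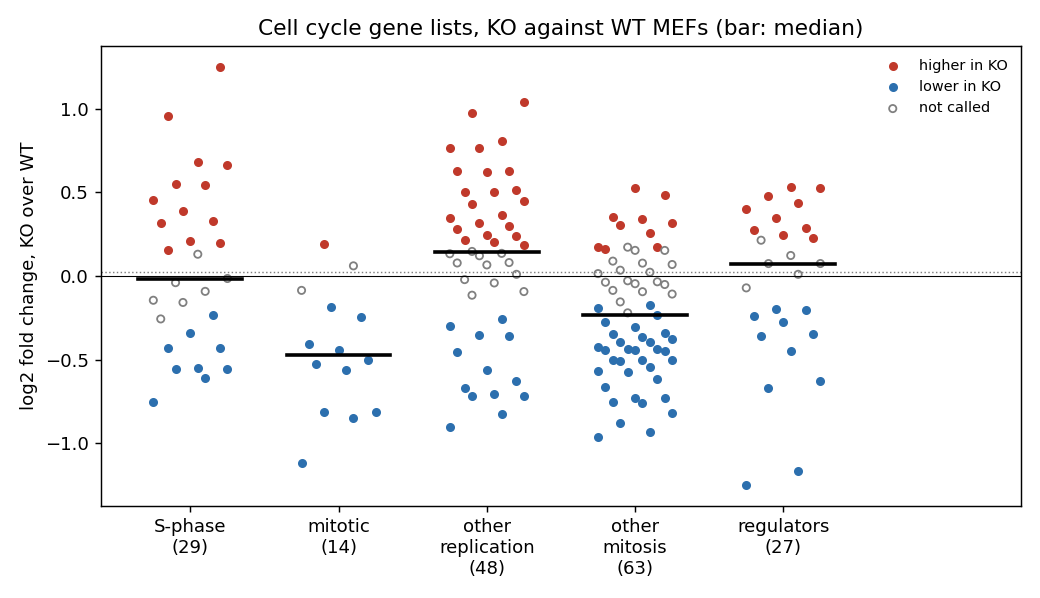
Log2 fold change, KO over WT, of every gene in 5 lists, with the median as a bar, the median of all genes as a dotted line, and colours for genes called higher (red), lower (blue) or not called (open). The mitotic and other mitosis genes have medians of -0.47 and -0.23, and the S-phase and other replication genes have medians of -0.016 and 0.14.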

How the data were processed

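RNA from 2 KO and 2 WT libraries was made with a stranded, ribosomal RNA-depleted kit. According to the methods and the submitters' processing notes, reads were processed with CASAVA 1.8.2, TopHat2 and Bowtie against mm9, and the deposited raw counts were made by the authors with HTSeq 0.5.4p3 from Ensembl release 67 genes. No source used here states whether strand was used in counting, so reads of overlapping genes on opposite strands may not be told apart. On either strand, 10 of the 43 genes share exon bases with another gene. Those of *Top2a* are shared on the same strand only. Columns of normalized values and of the authors' own test of KO against WT (log2 ratio, p-value) were left out.

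edgeR 4.0.16 (R 4.3.3) was run on these counts: filterByExpr kept 15538 of 23537 genes, TMM set the scaling, and the quasi-likelihood test had a single genotype term, with Benjamini-Hochberg adjustment. CPM used the TMM-scaled library sizes, and lengths were exon unions of the mm9 annotation. The SE was computed by dividing the size of each log2 fold change by the root of its F statistic. Also tried were DESeq2 1.42.0, limma 3.58.1 (voom), a replicate block, leaving out each library in turn, and further scalings, filters and thresholds. Copies were sought with minimap2 2.31-r1302, at 95% identity over 200 aligned bases. The script was tested on simulated data. Named were all 43 genes, with values per library for the largest changes and for genes moving against their role group. Of the other lists, up to 4 genes in each direction were named. *Cdc7*, *Foxm1*, *Mbd4* and some cell type markers were named outside this rule. The genes and lists were chosen with earlier results of these data known.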

Additional observations from a re-analysis of the deposited data

How the results depend on the processing

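Of the 34 called genes among the 43, 25 kept their call under all 12 alternative fits, 16 S-phase and 9 mitotic, and none of the 43 changed direction while called. With an absolute log2 fold change of at least 1 required as well, counts were 1 higher and 0 lower for S-phase, 0 and 1 for mitotic, 1 and 0 for other replication, 0 and 0 for other mitosis genes, and 0 and 2 for regulators. The count of 1 mitotic gene higher in KO became 0 with DESeq2, no filter on low counts or an adjusted p of 0.01, 2 with library totals, and 0 to 1 when a library was left out.

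Scaling by library totals moved the all-gene median log2 fold change to 0.17, and the share of calls that were higher to 62.6%, against 51.4% with TMM. The medians of S-phase and mitotic genes became 0.13 and -0.32, which relative to all genes were -0.039 and -0.50, against -0.040 and -0.50 with TMM. Library totals also gave 18 of 63 other mitosis genes higher and 7 of 27 regulators lower. Of all 15538 genes, 6628 were higher and 3964 lower with that scaling. Upper-quartile scaling gave medians of 0.044 and -0.41, and counting *Ccna2* with the S-phase genes gave -0.44 for mitotic genes. DESeq2 gave -0.50 for mitotic genes and 6 regulators higher. Over all genes, DESeq2 called 4367 higher, against 5335 in the main fit. An adjusted p of 0.01 also gave 6 regulators higher, with no count over all genes taken at that threshold. Leaving out a library gave medians of -0.11 to 0.048 for S-phase genes and -0.51 to -0.44 for mitotic genes, with 9 to 13 S-phase genes higher and 8 to 13 lower, and 6 to 10 regulators higher. The sign of the S-phase median was therefore not fixed. The causes of these shifts were not tested.

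With the replicate number as a block, 13 S-phase genes were higher and 9 lower, 1 mitotic gene was higher and 11 were lower, and the call of no member changed. Same-numbered libraries did not deviate together (correlation -0.042), so the numbers were not taken as pairs. With 2 libraries per genotype, small changes such as that of *Tyms* are at the limit of what these data resolve.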
